A study of Sus scrofa with 4 samples.

Results

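Transcription factors that commit mesenchymal cells to the fat lineage or hold them back from it were followed through the differentiation of porcine subcutaneous preadipocytes. The 9 genes chosen by name were ZNF423, EBF1, GATA2, GATA3, GATA6, TCF7L1, TCF7L2, NR2F2 and FOXC2, out of 16192 protein-coding genes with a deposited value, and all 9 were found. Preadipocytes were taken from the subcutaneous fat of male Chinese Erhualian piglets in the first week of life and grown to confluence. RNA was collected before induction (D0), on day 2 of a cocktail of dexamethasone, IBMX and insulin (D2), on day 4 after insulin-only medium (D4) and on day 8 after a return to growth medium (D8). RNA of 3 individuals was pooled into 1 rRNA-depleted, strand-specific library per stage, so that there are 4 libraries and no replicates. A stage is at once a medium and a library, these cannot be told apart, and stages were not tested against each other. The intervals given below are 95% intervals of counting error only and do not include the spread between animals or cultures. In RNA from a whole culture, fewer cells of a type and less RNA per cell cannot be told apart.

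Fat cells form when a fibroblast-like progenitor is first committed to the lineage and then switches on PPARG and CEBPA, the master regulators of the adipocyte programme. The zinc finger protein ZNF423 and the early B-cell factor EBF1 act on the side of commitment and differentiation. GATA2 and GATA3 are known from mouse preadipocytes as factors that hold differentiation back, whereas the TCF7L proteins carry the β-catenin signal of the WNT pathway to DNA. NR2F2 (COUP-TFII) is a nuclear receptor with a role in progenitors, and FOXC2 is a forkhead factor known for its effects in mature fat.

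Expression was measured as FPKM, that is fragments scaled by gene length and by the fragments of the library, and read numbers were computed back from it. The library totals behind the FPKM were between 54128151 and 75387428 fragments, of which 70.9% to 78.8% belonged to protein-coding genes. Reads of a gene below are such fragments. The totals are below the numbers of mapped reads that the authors report for each library. Of 7 measured preadipocyte markers 6 were reliably expressed, and the summed FPKM of that list was 639 in D0, 987 in D2, 976 in D4 and 672 in D8. PDGFRA had 75.8, 189, 149 and 60.8, and PDGFRB, CD34, DCN and LUM were also higher at D4 than at D0. THY1, with 105, 101, 88.0 and 78.8, and COL1A1, with 258, 283, 193 and 211, were lower at D4 than at D0. The summed FPKM of the adipocyte markers was 122 in D0, 491 in D2, 1747 in D4 and 2076 in D8, and without FABP4 it was 44.7, 290, 894 and 519, so that the highest sum was then at D4. Of 7 measured endothelial markers, 5 to 6 were under FPKM 1 at each stage, with CDH5 at 0 in 3 libraries and VWF at 0 in 3 libraries. PECAM1, the 1 reliably expressed gene of that list, had 2.56 in D0, 1.14 in D2, 1.70 in D4 and 1.87 in D8. ERG had 3.72, 0.981, 0.850 and 1.70, and both were highest at D0. Of 6 measured leukocyte markers, 4 to 5 were under FPKM 1. The summed FPKM was between 2.18 and 6.44 for the endothelial list and, mostly from CD14, between 3.54 and 8.17 for the leukocyte list, which was highest at D4. The epithelial list, nearly all of it KRT5, had a summed FPKM of 45.2 in D0, 109 in D2, 181 in D4 and 277 in D8, and that of the skeletal muscle list was at most 0.139. The summed FPKM of the 8 smooth muscle and pericyte markers was 6210 in D0, 665 in D2, 512 in D4 and 4815 in D8. That sum, led by ACTA2 and TAGLN, went the other way from the D4 peak described next, while MYH11 stayed under 1. Not all of the list did so. RGS5 was highest at D4, with 0.156, 0.142, 0.742 and 0.352, and NOTCH3 had 1.32, 1.10, 1.47 and 1.66. The part of these lists in the results below was not tested.

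Most of the 9 factors were scarce. A gene was called reliably expressed when its FPKM reached 1 in at least 3 libraries, which held for 9191 protein-coding genes and, among the 9, for EBF1 and TCF7L2. The other 7 did not pass, and 6 of the 9 were under FPKM 1 in all 4 libraries, where 36.8% of all protein-coding genes were. At D0 the order of FPKM was EBF1, TCF7L2, ZNF423, NR2F2, GATA6, TCF7L1, GATA2, FOXC2 and GATA3. The counting intervals of neighbours in this order overlapped from ZNF423 to TCF7L1 and again from GATA2 to GATA3. EBF1, TCF7L2 and these 2 sets were apart from each other. Within the first set, genes that were not neighbours could also be apart. The interval of ZNF423 lay above those of GATA6 and TCF7L1, and that of NR2F2 above that of TCF7L1. At D2 the order was EBF1, TCF7L2, ZNF423, NR2F2, GATA6, TCF7L1, GATA2, GATA3 and FOXC2, with overlapping neighbours from NR2F2 to TCF7L1 and from GATA2 to FOXC2. At D4 it was EBF1, TCF7L2, ZNF423, TCF7L1, NR2F2, GATA6, GATA2, FOXC2 and GATA3, and only the last 3 overlapped as neighbours. At D8 it was EBF1, TCF7L2, ZNF423, GATA6, TCF7L1, NR2F2, FOXC2, GATA2 and GATA3, with overlaps from GATA6 to NR2F2 and of FOXC2 with GATA2. EBF1, TCF7L2 and ZNF423 thus led in every library, in that order.

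**Figure D1:**
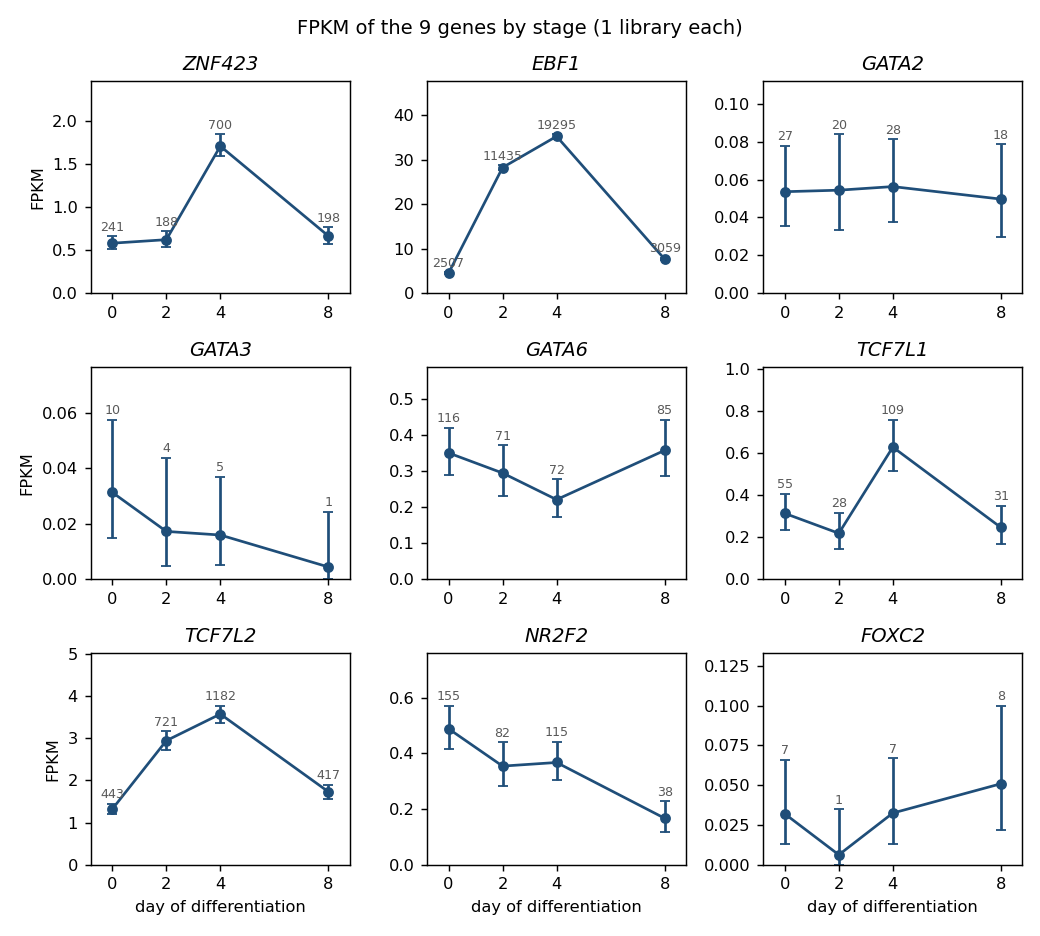
FPKM (vertical axis, linear, a scale of its own for each gene) against the day of differentiation for the 9 genes, with 1 library per day. Points are deposited values, bars are 95% counting intervals and the small numbers are reads; EBF1, TCF7L2, ZNF423 and TCF7L1 have their highest point on day 4.

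The EBF1 gene (gene ID 100520467, chromosome 16, 64357999 to 64753188, plus strand, Sscrofa11.1) encodes a helix-loop-helix type factor that binds the enhancers of many fat genes. Its FPKM was 4.51 in D0 (2507 reads), 28.2 in D2 (11435 reads), 35.2 in D4 (19295 reads) and 7.66 in D8 (3059 reads). It was the most abundant of the 9 at each stage, and it stood above 62.2% of protein-coding genes in D0, 89.1% in D2, 90.7% in D4 and 72.4% in D8. EBF1 was 6.25-fold higher at D2 than at D0 (interval 5.99 to 6.53) and 1.25-fold higher at D4 than at D2 (1.22 to 1.28). At D8 it was 4.59-fold lower than at D4 (4.42 to 4.77), yet still 1.70-fold above D0 (1.61 to 1.79). Most of the difference between D0 and D4 was thus present by D2, and most of it was gone at D8. A lncRNA on the opposite strand, LOC106506547, overlaps the gene over 16108 bases and had 0, 8, 33 and 13 reads, few beside those of EBF1.

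Among all reliably expressed genes EBF1 lay near both ends of the range. Its ratio of D4 to D0, 7.80-fold, ranked 122 of 9191 from the top, and its ratio of D8 to D4 ranked 9137. The median log2 ratio of the 9191 genes was 0.06 for D4 against D0 and −0.21 for D8 against D4, so the whole distribution was shifted in the second of these. With libraries scaled by the median ratio of genes, the log2 ratio of EBF1 for D8 against D4 was −1.99 in place of −2.20.

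**Figure D2:**
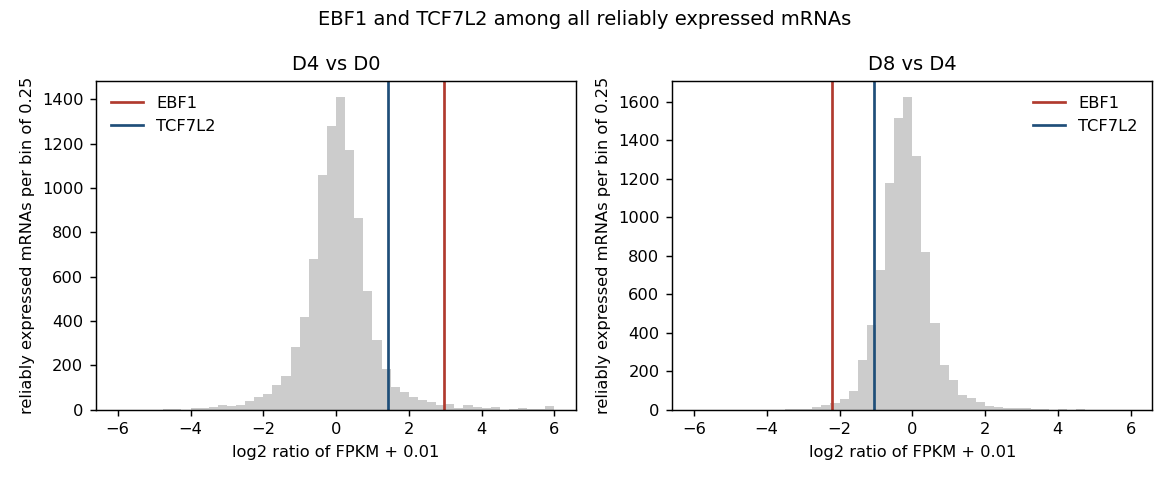
Distribution of the log2 ratio of FPKM + 0.01 (horizontal axis) over the 9191 reliably expressed protein-coding genes (vertical axis, genes per bin of 0.25; values beyond the axis are put in the end bins), for D4 against D0 and D8 against D4. The lines mark EBF1 and TCF7L2, on the right side of the left panel at 2.96 and 1.44 and on the left side of the right panel at −2.20 and −1.04.

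The genes whose course over the 4 libraries was nearest to that of EBF1 were searched for among 8561 protein-coding genes with an FPKM of at least 1 in every library, by the root mean square distance of centred log2 values. The nearest was RGL1, a guanine nucleotide exchange factor of the Ral pathway, at a distance of 0.0785. Its FPKM was 2.42 in D0, 15.0 in D2, 21.2 in D4 and 4.03 in D8. GK (glycerol kinase) followed at 0.116, with 1.05, 6.56, 7.58 and 2.06. PLPP3, a lipid phosphate phosphatase, came next at 0.146, with 6.30, 47.6, 44.9 and 10.8. Each of the 3 had its lowest value at D0 and its second lowest at D8, and PLPP3 differed from EBF1 in being slightly higher at D2 than at D4.

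ZNF423 (gene ID 100520077, chromosome 6, 34929286 to 35299695, plus strand) encodes a zinc finger coregulator that marks committed preadipocytes and binds EBF proteins. Its FPKM was 0.582 in D0 (241 reads), 0.623 in D2 (188 reads), 1.71 in D4 (700 reads) and 0.666 in D8 (198 reads). The D0, D2 and D8 libraries had overlapping intervals, and D4 stood alone above them. The value at D4 was 2.75-fold that at D2 (2.34 to 3.25) and 2.94-fold that at D0 (2.54 to 3.42), and D8 was 2.57-fold below D4 (2.19 to 3.03). Between D0 and D2, where EBF1 showed most of its difference, the ratio of ZNF423 was 1.07 with an interval of 0.879 to 1.30. At D8 against D0 its ratio was 1.14, with an interval of 0.943 to 1.39. Since it exceeded FPKM 1 in 1 library only, ZNF423 did not enter the calls of reliably expressed genes.

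Of the other genes of the EBF family, EBF2 and EBF3 were highest at D4 with fewer reads, whereas EBF4 was lowest there. All 3 were singled out after their values were seen. EBF2, a marker of brown and beige precursors, had an FPKM of 0.792 in D0, 2.13 in D2, 2.80 in D4 and 0.611 in D8. Its ratio of D8 to D4, 4.59-fold lower (log2 −2.20, interval −2.40 to −2.00), was the same as that of EBF1 within counting error. EBF3 had an FPKM of 0.349, 0.652, 0.831 and 0.431. EBF4 had 0.294, 0.327, 0.113 and 0.144 (37, 30, 14 and 13 reads), with a log2 ratio of D4 to D0 of −1.38 (interval −2.38 to −0.46). EBF1 nevertheless made up 75.9% of the summed FPKM of the 4 EBF genes at D0 and between 86.6% and 90.4% later.

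The list of partners of EBF and ZNF423 proteins holds EBF relatives and SMAD and E-protein genes. Of its 14 genes, 9 were reliably expressed, and none of these 9 was 2-fold higher or lower at D2 against D0, at D4 against D2, at D8 against D4 or at D4 against D0, where 6.67%, 4.24%, 4.43% and 10.4% of all reliably expressed genes were higher and 10.1%, 0.838%, 10.1% and 8.81% lower. With 9 genes, such a count is not set apart from that background. SMAD9, an effector of BMP signalling, was 2-fold lower at D8 than at D0, with an FPKM of 7.04 in D0, 4.28 in D2, 3.75 in D4 and 3.49 in D8, but not with median-ratio scaling (log2 −0.86). TCF3, an E-protein, had the largest ratio of D4 to D0 among the 9 and was 1.27, 1.34, 1.91 and 1.02. The median log2 ratio of the 9 genes was −0.27 for D4 against D0, beside 0.06 over all reliably expressed genes. The 5 genes below the limit included EBF2, EBF3 and EBF4, given above, and ZNF467, a zinc finger gene with 93 reads in D0, 5 in D2, 7 in D4 and 14 in D8 that was named after its values were seen.

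TCF7L2 (gene ID 100153922, chromosome 14, 123343695 to 123547332, plus strand) is the β-catenin partner best known in adipose tissue and for its association with diabetes. Its FPKM was 1.32 in D0 (443 reads), 2.94 in D2 (721 reads), 3.57 in D4 (1182 reads) and 1.73 in D8 (417 reads). The order of the stages was that of EBF1, at a smaller span. TCF7L2 was 2.23-fold higher at D2 than at D0 (log2 1.16, interval 0.99 to 1.33), 2.71-fold higher at D4 than at D0 (log2 1.44, 1.28 to 1.60) and 2.06-fold lower at D8 than at D4 (log2 −1.04, −1.21 to −0.88). The last of these is at the edge of the 2-fold limit: scaled by the median ratio of genes, the log2 value was −0.83, and TCF7L2 was then not called. With a pseudocount of 1 the 3 log2 ratios were 0.77, 0.98 and −0.74, none of them past the limit. At D8 it remained 1.31-fold above D0 (log2 0.39, interval 0.19 to 0.59).

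TCF7L1 (gene ID 100523899, chromosome 3, 59438152 to 59458988, minus strand) is a relative that acts mainly as a repressor of WNT targets. Its FPKM was 0.313 in D0 (55 reads), 0.218 in D2 (28 reads), 0.629 in D4 (109 reads) and 0.246 in D8 (31 reads). As for ZNF423, the D4 library stood above the other 3, whose intervals overlapped. The log2 ratio was 1.53 for D4 against D2 (0.92 to 2.18), 1.01 for D4 against D0 (0.53 to 1.50) and −1.36 for D8 against D4 (−1.98 to −0.77). TCF7L1 and TCF7L2 differed in the D2 against D0 step, where TCF7L1 had a log2 ratio of −0.52 (−1.23 to 0.16) and TCF7L2 one of 1.16, so that the intervals did not overlap.

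The genes nearest to TCF7L2 by their course over the libraries were ACAD10, an acyl-CoA dehydrogenase family member, at a distance of 0.0425, LRP6 at 0.0450 and C10H9orf72 at 0.0479. LRP6 is a co-receptor for WNT ligands, and its FPKM was 8.90 in D0, 19.6 in D2, 22.9 in D4 and 10.8 in D8. ACAD10 went from 2.84 to 6.57, 8.26 and 3.99, and C10H9orf72 from 5.41 to 13.2, 15.3 and 7.51. All 3 had the order of stages seen for TCF7L2.

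Of the 19 listed genes of the TCF/LEF complex and β-catenin, 18 were measured and 10 reliably expressed. Of these 10, LRP6 was at least 2-fold higher at D2 than at D0 (background 6.67%), LRP6 and TLE3 at D4 than at D0 (10.4%), and none of the 10 was 2-fold lower in either comparison. At D8 against D4, LRP6, TLE3 and PYGO1 were at least 2-fold lower (10.1%). With median-ratio scaling, LRP6 was not called at D8 against D4 (log2 −0.87), and TLE3 at D4 against D0 fell just short of the limit. TLE3, a Groucho-type corepressor, had an FPKM of 2.02 in D0, 2.41 in D2, 4.20 in D4 and 1.35 in D8. APC, a member of the β-catenin destruction complex, had the smallest ratio of D4 to D0 among the 10, with 9.15, 4.94, 6.39 and 7.76. Below the limit for reliable expression, TLE4, named after its values were seen, had 1.41, 0.528, 0.715 and 0.591, and LEF1 and TCF7 are described next. The median log2 ratio of the 10 genes was 0.06 for D4 against D0, equal to that of all reliably expressed genes, and −0.68 for D8 against D4, beside −0.21 over all.

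Within the TCF/LEF family, TCF7L2 held between 65.5% and 79.4% of the summed FPKM of the 4 genes. LEF1, picked out after its values were seen, was the relative that changed most, from an FPKM of 0.0716 in D0 (49 reads) to 0.519 in D2 (259 reads), 1.11 in D4 (750 reads) and 0.484 in D8 (238 reads). Its ratio of D4 to D0 was 15.5-fold (log2 3.96, interval 3.54 to 4.40), and D8 was still 6.76-fold above D0. TCF7 went the other way at D2, with an FPKM of 0.175 in D0, 0.0267 in D2, 0.141 in D4 and 0.0504 in D8. The 4 TCF/LEF genes thus did not share 1 course.

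**Figure D3:**
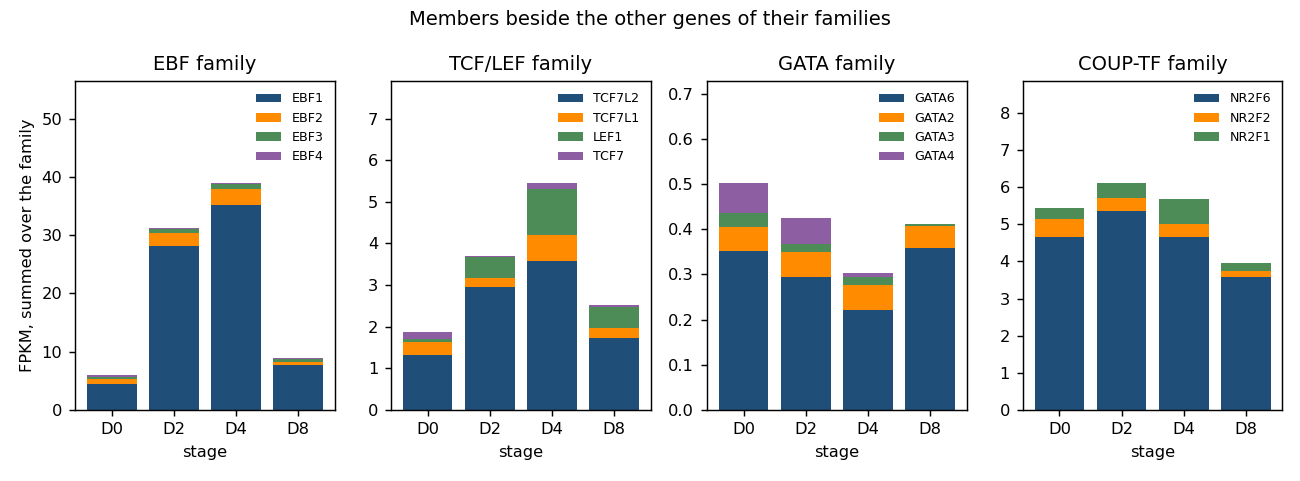
Summed FPKM (vertical axis, starting at 0, a scale of its own for each panel) of the EBF, TCF/LEF, GATA and COUP-TF families at each stage, with the genes stacked in the colours of the legend. EBF1 and TCF7L2 fill most of their families' bars, NR2F6 fills most of the COUP-TF bar, and the GATA bar stays at or below 0.502.

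Genes that canonical WNT signalling is known to switch on as feedback did not move in 1 direction. Of 10 listed, 9 were measured and only 2 were reliably expressed, APCDD1 and NKD2, and both were called in every comparison with D0. APCDD1, an inhibitor at the level of the receptor, had an FPKM of 0.243 in D0, 1.19 in D2, 2.77 in D4 and 1.80 in D8. NKD2, an inhibitor that acts on Dishevelled, had 27.0, 12.0, 8.73 and 11.0. The first was thus higher and the second lower at each later stage than at D0. At D2, D4 and D8 against D0, 6.67%, 10.4% and 3.60% of all reliably expressed genes were higher and 10.1%, 8.81% and 3.68% lower. Below the limit for reliable expression, AXIN2 had 0.182, 0.329, 0.844 and 0.204 (72, 95, 330 and 58 reads) and NKD1 had 0.528, 1.16, 2.48 and 0.986. AXIN2 and NKD1 were named after their values were seen, and both were highest at D4, 4.65-fold and 4.70-fold above D0. Other targets below the limit did not all share this course. RNF43 had 0.183, 0.0412, 0.0610 and 0.0559, highest at D0, and ZNRF3 had 0.316, 0.357, 0.433 and 0.212.

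The GATA factors that restrain fat formation were near the limit of detection. GATA2 (gene ID 396912, chromosome 13, 71981139 to 71997626, plus strand) had an FPKM of 0.0536 in D0 (27 reads), 0.0544 in D2 (20 reads), 0.0563 in D4 (28 reads) and 0.0497 in D8 (18 reads). The 4 values lay close together, and every interval of its ratios held no difference. For D4 against D0 the log2 ratio was 0.07, with an interval of −0.74 to 0.89, so that a difference of less than that size could not be seen at this depth. A lncRNA on the opposite strand, LOC102160340, lies within GATA2 and had 78, 42, 60 and 46 reads, more than GATA2 in each library. Whether counting used the strand is not given in the sources used here, and without it the reads of the pair cannot be told apart.

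GATA3 (gene ID 733631, chromosome 10, 63367684 to 63397977, minus strand) had 10 reads in D0, 4 in D2, 5 in D4 and 1 in D8, or an FPKM of 0.0313, 0.0172, 0.0159 and 0.00436. The highest value was at D0 and the lowest at D8. The log2 ratio of D8 to D0 had an interval of −8.28 to −0.03, which barely leaves out no difference and rests on 11 reads, and the intervals of the other comparisons held 0.

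GATA6 (gene ID 397600, chromosome 6, 107282709 to 107314725, plus strand), a factor of mesoderm and endoderm, was the most abundant of the GATA genes. Its FPKM was 0.351 in D0 (116 reads), 0.295 in D2 (71 reads), 0.221 in D4 (72 reads) and 0.358 in D8 (85 reads). GATA6 was the one factor with over 20 reads that was lowest at D4, 1.59-fold below D0 (log2 −0.67, interval −1.11 to −0.23). At D8 it was 1.62-fold above D4 (log2 0.70, 0.23 to 1.17) and not apart from D0 (log2 0.03, −0.39 to 0.45). GATA6 made up between 69.3% and 86.9% of the summed FPKM of the GATA2, GATA3, GATA4 and GATA6 genes.

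Of 13 listed GATA relatives and cofactors, 11 were measured and 5 reliably expressed, and 1 of the 5 was called in 1 comparison. That gene was GATAD2B, a subunit of the NuRD repressor complex, with an FPKM of 1.40 in D0, 1.17 in D2, 1.79 in D4 and 0.793 in D8. It was at least 2-fold lower at D8 than at D4 (log2 −1.16, background 10.1%) but not with median-ratio scaling (log2 −0.95). Over the 5 comparisons, 3.60% to 10.4% of all reliably expressed genes were higher and 0.838% to 10.1% lower. With 5 genes, such a count is not set apart from that background. GATAD1 had the smallest ratio of D4 to D0 among the 5, with 10.7, 6.31, 6.61 and 7.80. GATA4, below the limit for reliable expression and named after its values were seen, had 28 reads in D0, 18 in D2, 4 in D4 and none in D8. The median log2 ratio of the 5 genes was 0.25 for D4 against D0 and −0.40 for D8 against D4, beside 0.06 and −0.21 over all reliably expressed genes.

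NR2F2 (gene ID 100153983, chromosome 7, 83076119 to 83090250, minus strand) was the one factor with at least 20 reads in at least 1 library that was highest at D0. Its FPKM was 0.488 in D0 (155 reads), 0.354 in D2 (82 reads), 0.367 in D4 (115 reads) and 0.167 in D8 (38 reads). D2 and D4 were alike within counting error, and the D8 library stood below all others. The log2 ratio was −0.46 for D2 against D0 (−0.87 to −0.07), 0.05 for D4 against D2 (−0.37 to 0.48) and −1.14 for D8 against D4 (−1.71 to −0.60). D8 was 2.93-fold below D0 (log2 −1.55, −2.10 to −1.03), and with median-ratio scaling the log2 value was −1.35. A gene on the opposite strand, LOC102160410, overlaps NR2F2 over 6017 bases and had 11, 34, 90 and 34 reads, close to the number of NR2F2 reads at D4 and D8. As for GATA2, these reads cannot be told apart from those of NR2F2 unless the counting used the strand.

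NR2F1, named after its values were seen, did not share the course of NR2F2. Its FPKM was 0.287 in D0, 0.408 in D2, 0.652 in D4 and 0.214 in D8, with a log2 ratio of D4 to D0 of 1.18 (0.80 to 1.57) where NR2F2 had −0.41 (−0.77 to −0.05). NR2F6 made up 82.0% to 90.4% of the summed FPKM of the 3 COUP-TF genes. Of the 8 listed relatives and corepressors, all were measured and 5 were reliably expressed, none of which was called in any of the 5 comparisons. Over these comparisons, 3.60% to 10.4% of all reliably expressed genes were higher and 0.838% to 10.1% lower. With 5 genes, such a count is not set apart from that background. The median log2 ratio of the 5 genes was 0.18 for D4 against D0, −0.63 for D8 against D4 and −0.38 for D8 against D0. Over all reliably expressed genes it was 0.06, −0.21 and −0.18. NR2C1 had the largest ratio of D4 to D0 among the 5 (FPKM 1.83, 1.63, 2.35 and 1.51), and NCOR1, a nuclear receptor corepressor, the smallest (1.72, 1.40, 1.55 and 0.998). Listed genes below the limit for reliable expression were not flat. HEY2 had 2.79, 0.443, 0.790 and 3.00, and HEY1 had 0.217, 0.149, 1.54 and 0.360. HEY1 and HEY2 were named after their values were seen.

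FOXC2 (gene ID 100526107, chromosome 6, 2552141 to 2555041, minus strand) had 7 reads in D0, 1 in D2, 7 in D4 and 8 in D8, or an FPKM of 0.0320, 0.00627, 0.0325 and 0.0509. The D0, D4 and D8 libraries could not be told apart at this depth, and the single read in D2 left an interval of 0.12 to 8.49 for the log2 ratio of D8 to D2. The gene lies wholly within MTHFSD, on the opposite strand, which had 403, 472, 547 and 184 reads, so that the reads of FOXC2 are uncertain unless the counting used the strand. FOXL1, a forkhead gene 7163 bases away that was named after its values were seen, had 174 reads in D0, 4 in D2, 17 in D4 and 20 in D8. That gene was thus highest at D0, a course that the 23 reads of FOXC2 do not show.

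Of the 20 listed forkhead relatives, 10 were reliably expressed. FOXO1 and FOXO3, which insulin signalling keeps out of the nucleus, were at least 2-fold higher at D2 and at D4 than at D0 (background 6.67% and 10.4%). Both were at least 2-fold lower at D8 than at D4 (background 10.1%), FOXO1 not with median-ratio scaling (log2 −0.92). FOXO3 had an FPKM of 1.34 in D0, 5.43 in D2, 8.06 in D4 and 2.28 in D8, the largest ratio of D4 to D0 among the 10. FOXP1 was at least 2-fold lower at D2 and at D4 than at D0 (background 10.1% and 8.81%), with 3.18, 1.33, 1.32 and 1.61. FOXK1 was at least 2-fold lower at D8 than at D4, but not with median-ratio scaling (log2 −0.80). The median log2 ratio of the 10 genes was 0.37 for D4 against D0 and −0.57 for D8 against D4. Over all reliably expressed genes it was 0.06 and −0.21.

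Counted as calls, EBF1 and TCF7L2 were at least 2-fold higher at D2 than at D0 on log2(FPKM + 0.01), as 6.67% of reliably expressed genes were, while 10.1% were lower. At D4 against D2 neither was called (background 4.24% higher and 0.838% lower). At D8 against D4 both were at least 2-fold lower (background 10.1% lower, 4.43% higher). At D4 against D0 both were higher (background 10.4% higher, 8.81% lower), and at D8 against D0 neither was called (background 3.60% higher, 3.68% lower). Both were highest at D4, as were 37.3% of reliably expressed genes. With 2 genes, these counts say little beyond the values given above.

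A second count, chosen after the data were seen, took genes with at least 20 reads in at least 1 library, which 13481 protein-coding genes and 7 of the 9 factors passed, all except GATA3 and FOXC2. At D2 against D0, EBF1 and TCF7L2 were higher and none lower (background 11.0% and 15.8%). At D4 against D2, ZNF423 and TCF7L1 were higher and none lower (10.2% and 3.81%). The 4 genes thus passed the limit in different steps. At D8 against D4, 5 of the 7 were lower, EBF1, TCF7L2, ZNF423, TCF7L1 and NR2F2, and none was higher (15.5% and 8.76%). With median-ratio scaling, TCF7L2 (log2 −0.83) and NR2F2 (log2 −0.89) fell short of the limit there. At D4 against D0, EBF1, TCF7L2 and ZNF423 were higher and none lower (16.0% and 13.4%). TCF7L1 was at the edge of the limit, with 0.98 on log2(FPKM + 0.01) and 1.01 by read rates. With median-ratio scaling the first of these was 0.93, and with protein-coding sum scaling 1.02. At D8 against D0, only NR2F2 was lower and none was higher (9.26% and 7.97%). EBF1, TCF7L2, ZNF423, TCF7L1 and GATA2 were highest at D4 (background 36.9%), NR2F2 at D0 and GATA6 at D8.

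**Figure D4:**
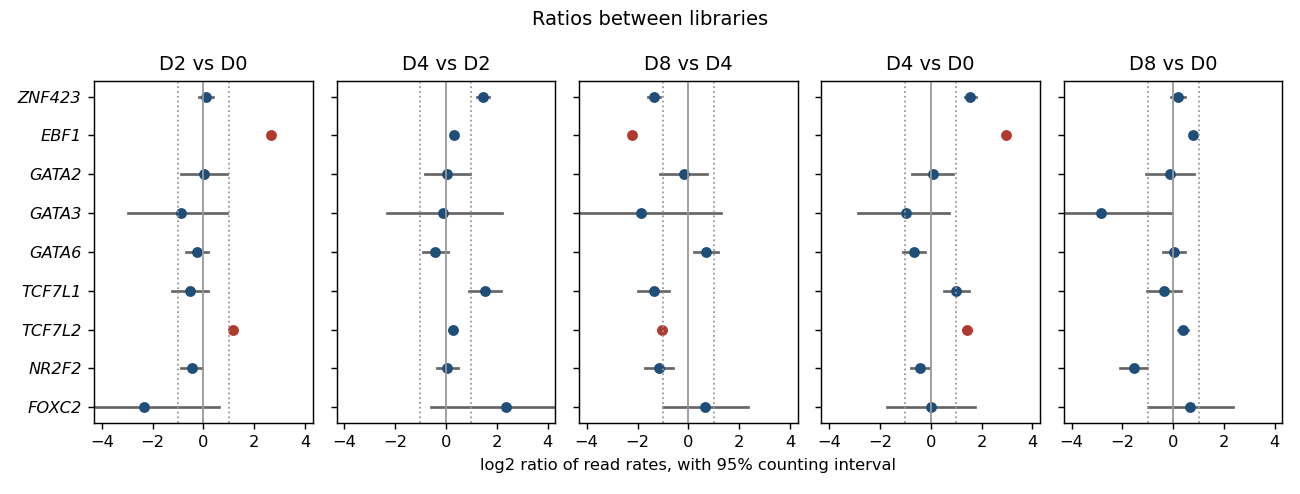
Log2 ratio of read rates (horizontal axis) of the 9 genes in 5 comparisons of libraries, with 95% counting intervals as lines, some of which run past the axis or are shorter than the point. Dotted lines mark 2-fold; red points are calls among reliably expressed genes (EBF1 and TCF7L2), blue points all others.

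A list of adipocyte genes and regulators is given for comparison, and whether the 9 factors act on them was not tested. Of 12 listed, 11 were measured and 10 reliably expressed, and of these 10, 9 were at least 2-fold higher at D2 than at D0, 8 at D4 than at D0 and 8 at D8 than at D0, beside 6.67%, 10.4% and 3.60% of all reliably expressed genes. PPARG had an FPKM of 2.95 in D0, 26.4 in D2, 51.9 in D4 and 25.8 in D8, and CEBPA had 15.4, 95.3, 162 and 37.1. PPARG, CEBPA, FABP4, ADIPOQ, PLIN1, LPL, LIPE and CD36 were called in all 3 comparisons with D0. PLIN1, the perilipin that coats lipid droplets, had the largest ratio of D4 to D0 among the 10, with 2.28, 36.1, 215 and 90.3, and CEBPD, an early factor of the cascade, the smallest, with 140, 299, 178 and 165. At D8 against D4, PPARG, CEBPA, CEBPB, PLIN1 and LIPE were at least 2-fold lower (background 10.1%), while FABP4, the fatty acid carrier, was 853 at D4 and 1557 at D8. With median-ratio scaling PPARG was not called there (log2 −0.80) and FABP4 was, as higher (log2 1.08). CIDEC, below the limit for reliable expression and named after its values were seen, was also highest at D8. Its FPKM was 0.271 in D0, 0.780 in D2, 5.01 in D4 and 54.6 in D8, with a log2 ratio of D8 to D4 of 3.44. At D8 against D0 the log2 ratio was 3.12 for PPARG and 1.27 for CEBPA, and 0.77 for EBF1 and 0.39 for TCF7L2.

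Circular RNAs, which form when an exon end is spliced back to an upstream exon start, were deposited for 3 of the 9 loci. Of 8623 listed circRNAs, 8 lay within the 9 genes on the same strand, 5 in EBF1, 2 in ZNF423 and 1 in TCF7L2. They were listed only from 2 junction reads, so a 0 means fewer than 2. In EBF1, ssc_circ_0007873 (chromosome 16, 64650290 to 64669823) had no listed read in D0, 5 in D2, 13 in D4 and 20 in D8. A second circle, ssc_circ_0007874, has the same end and a start 3 bases further on, and had 3, 9, 7 and 4 reads. The first made up 5 of 14 reads of the pair at D2 (35.7%, exact 95% interval 12.8% to 64.9%), 13 of 20 at D4 (65.0%, 40.8% to 84.6%) and 20 of 24 at D8 (83.3%, 62.6% to 95.3%). The intervals of D2 and D8 overlap slightly, and how the caller places a read that could belong to either start is not given in the sources used here.

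Over its 5 circles, EBF1 had 3 junction reads in D0, 14 in D2, 33 in D4 and 29 in D8. Between D4 and D8 the junction reads thus stayed near the same number while the reads of the gene were 19295 and 3059. Per 1000 reads of the gene, there were 1.20 junction reads in D0 (interval 0.247 to 3.50), 1.22 in D2 (0.669 to 2.05), 1.71 in D4 (1.18 to 2.40) and 9.48 in D8 (6.35 to 13.6). The first 3 stages had overlapping intervals and D8 stood above them, 5.54-fold over D4 (3.25 to 9.42). Over 366 genes with at least 20 junction reads in both libraries, the median of the same ratio was 1.29-fold, and EBF1 had the highest. This ranking was made after the values of EBF1 were seen.

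**Figure D5:**
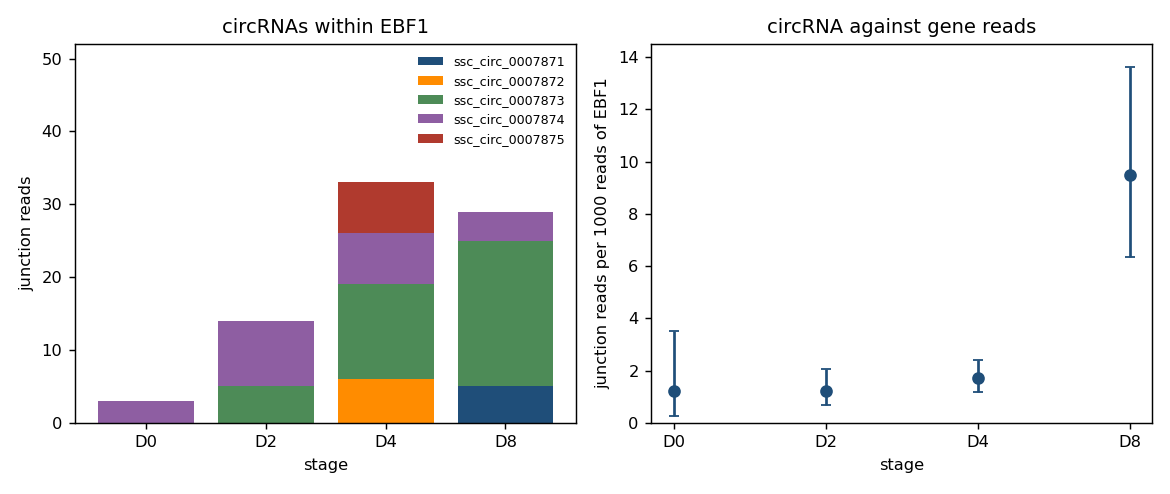
Left, junction reads (vertical axis, stacked by circRNA) of the 5 circRNAs within EBF1 at each stage, with totals of 3, 14, 33 and 29. Right, the same totals per 1000 reads of the EBF1 gene with 95% counting intervals, from 1.20 at D0 to 9.48 at D8.

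The remaining circles had few reads. ZNF423 held ssc_circ_0003263 (chromosome 6, 34999715 to 35053303), listed with 14 reads at D4 and 6 at D8 and with none at D0 and D2, and ssc_circ_0003264 with 2 reads at D4. TCF7L2 held ssc_circ_0006817 (chromosome 14, 123423852 to 123473893) with 6 reads at D4 alone. Both genes thus had their highest number of junction reads at D4, the stage of their highest FPKM. ZNF423 had 22.9 junction reads per 1000 gene reads at D4 (13.1 to 37.1) and 30.3 at D8 (11.1 to 66.0), which overlap. Of lncRNAs within 50 kb of the 9 genes, the one with an FPKM of at least 1 was TGOLN2, listed as a lncRNA 11362 bases from TCF7L1, with an FPKM of 9.89 in D0, 10.8 in D2, 10.4 in D4 and 6.70 in D8 and without the D4 peak of TCF7L1.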

How the data were processed

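The authors sequenced 4 pooled libraries, aligned the reads with HISAT2 (version 2.0.5 per the labels) and deposited FPKM for genes and, in the same column, SRPBM (a junction-read signal scaled by mapped reads) for circRNAs called with BWA-MEM and CIRI. Coordinates are those of the deposited files and matched the Sscrofa11.1 RefSeq table for 9 of 9 genes. Library totals were computed from the deposited FPKM of tRNA genes, and gene lengths as the smallest whole length at which all FPKM values deposited for a gene were whole reads, found for 22944 of 22944. A length that is a fraction of the true one gives proportionally fewer reads and wider intervals. In data simulated for D4 against D0 (2181 genes), all read numbers of a gene matched those drawn for 94.7% of genes. The simulation used these same lengths and took the totals as known. It therefore tests neither the totals nor whether the lengths are the true ones. In the deposited data, the length equalled the listed span for 219 of 256 tRNA genes and 82 of 88 miRNA genes above 0 in at least 3 libraries. Intervals are exact Poisson or conditional binomial (scipy 1.17.1). Calls were ratios of at least 2 on log2(FPKM + 0.01) among reliably expressed genes. Members, lists and tests were chosen with earlier results of these data known. Named were all 9 genes, the 3 nearest courses to each reliably expressed one, the largest and smallest D4 to D0 ratio of each list and any gene called in all comparisons with D0, the circRNAs above 0 in at least 3 libraries or highest at a locus, and lncRNAs within 50 kb with FPKM of at least 1. All other genes named, among them PYGO1, TLE3, FOXO1, FOXK1, TCF7, CEBPB, NR2F6, the genes of the marker lists and the overlapping genes, and ssc_circ_0003264, were chosen after their values were seen. Alternatives were pseudocounts of 0.1 and 1, no filter, scaling by the median ratio or the protein-coding sum, gene lengths of the reference and circRNAs on either strand.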

Additional observations from a re-analysis of the deposited data

How the results depend on the processing

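The calls of EBF1 held in all alternatives, while those of TCF7L2 depended on the pseudocount. With a pseudocount of 1, the number of genes called was 1 at D2 against D0, 1 at D8 against D4 and 1 at D4 against D0, in place of 2, with EBF1 left in each. With median-ratio scaling it was 1 at D8 against D4. Without the filter it was 3 at D2 against D0 (FOXC2 added, as lower), 3 at D4 against D0 (ZNF423 added), 3 at D4 against D2 (ZNF423, TCF7L1 and FOXC2), 5 at D8 against D4 and 2 at D8 against D0 (NR2F2 and GATA3). With at least 20 reads in a library, an alternative added after the data were seen, it was 2 at D4 against D2, 5 at D8 against D4 and 1 at D8 against D0. Of 180 log2 ratios recomputed over 9 genes and 5 comparisons, 157 stayed within the counting interval, and of the other 23, 17 were those with a pseudocount of 1. Scaling of the pathway lists, also added after the data were seen, moved the calls of 9 genes, those given in the report and NR2C2 (log2 −1.02 at D8 against D4 with the protein-coding sum). No called ratio of the 9 factors changed sign, and 7 uncalled ones did, all of GATA2, NR2F2 and FOXC2. The reference gave a gene length for FOXC2 only, with the same 23 reads, and this alternative was not run for the other 8 genes. Counting circRNAs on either strand gave the same 8. No paired analysis was possible because each stage has 1 library, and for the same reason none could be left out. Read numbers limit what can be said of GATA2, GATA3 and FOXC2.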
